A study of Bos taurus with 6 samples.

Results

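Respiratory chain assembly factors are proteins that help to build the complexes of the mitochondrial respiratory chain but do not stay in the finished enzymes. They were selected from the deposited expression table by gene symbol: the NDUFAF, COA, UQCC and SDHAF families, the COX10 to COX19 series and COX20, TMEM126A and TMEM126B, and single names such as SURF1, SCO1, SCO2, BCS1L and ATPAF1. The rule found 49 of the 36075 genes in the table, each under a single identifier. Of these, 15 act on complex I, 3 on complex II, 9 on complex III, 20 on complex IV and 2 on complex V. SDHAF4, a factor of complex II, had no row under that symbol. The values compared were those of 3 control and 3 MT-treated libraries of bovine blastocysts. The cumulus-oocyte complexes came from slaughterhouse ovaries and were matured in vitro for 22 h, either with melatonin (MT) at 1e-07 mol/L or, in the control, without it. After fertilization with frozen semen and removal of the cumulus cells, embryos of both groups were cultured without any further difference named in the methods. Each library held a pool of 3 blastocysts, and the 3 replicates of a group came from separate in vitro production runs. Within a run the treatments were handled side by side, but the labels do not say which libraries share a run. No genetic modification is named, and the age and breed of the ovary donors are not given.

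The respiratory chain passes electrons from NADH and succinate through complexes I to IV to oxygen, and complex V uses the resulting proton gradient to make ATP. Its subunits are encoded in the nucleus and in the mitochondrial genome, and they have to be joined in order and fitted with iron-sulfur clusters, flavin, heme and copper. Assembly factors carry out these steps as chaperones, enzymes and metal carriers, and inherited loss of many of them causes mitochondrial disease. The blastocyst is known to raise its oxygen consumption while it forms its cavity.

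The libraries of the groups stood far apart. Between 8854 and 8953 genes had a TPM (a transcript level corrected for gene length and scaled to the library total) above 0 in the control libraries, and between 14372 and 14408 in the MT-treated libraries. Across the 11953 genes tested, Pearson correlations of log2(TPM + 1) lay between 0.991 and 0.999 within a group and between 0.544 and 0.546 between groups, a description across genes that share libraries. Of the genes tested, 95.7% were called different, 61.6% higher and 34.1% lower in MT-treated blastocysts, so a call by itself separates the assembly factors from few other genes. Defining markers of the blastocyst lineages differed as well. The trophectoderm gene CDX2 and the inner cell mass gene NANOG were listed at 0 in every control library, with 15.03 to 17.2 TPM and 8.23 to 8.93 TPM in the MT-treated libraries, whereas the inner cell mass gene POU5F1 had 190 ± 1.49 TPM in control and 193 ± 1.83 TPM in MT-treated blastocysts (SD, n = 3 each). Of 7 trophectoderm markers 6 were higher and KRT8 was lower (higher with median centring), and because KRT8 and KRT18 dominate the list its sum was 11336 to 11679 TPM in control and 10506 to 10862 TPM in MT-treated libraries. The hypoblast genes GATA6 and PDGFRA had at most 0.44 and 0 TPM in control and 30.8 to 33.1 and 22.5 to 24.2 TPM in MT-treated libraries, while GATA4 was at 0 throughout and SOX17 reached at most 0.20 TPM. Of 11 cumulus and granulosa cell markers in the table, 6 were at 0 in all libraries, and the summed level of the list was 96.1 to 97.8 TPM in control and 96.9 to 99.5 TPM in MT-treated libraries, nearly all of it from CYP11A1 and FSHR. The part of these differences in the results was not tested.

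Transcripts of 47 of the 49 assembly factors were tested, the requirement being 3 or more libraries with 1 TPM or more. In MT-treated blastocysts 28 of the 47 were higher (59.6%), 14 were lower (29.8%) and 5 were not called, shares close to those of the genes tested as a whole. Taking log2 fold changes (on log2(TPM + 1)) of 1 or more in size, 16 were higher and 6 were lower, where 51.0% and 19.6% of the genes tested passed the same thresholds. The higher genes were of different kinds. Of the 28, 12 were listed at 0 in every control library, as were 33.8% of the genes tested, and these passed the filter through the MT-treated libraries, so a difference in them was built in. No assembly factor with transcripts in control was at 0 in every MT-treated library, as 3.01% of the genes tested were. The other 35 tested members were above 0 in all 6 libraries, and of these 16 were higher, 14 lower and 5 not called, against 40.6% higher and 52.3% lower (92.8% in either direction) among the 6925 genes of that kind. By at least 2-fold, 4 of the 35 were higher and 6 lower, against 22.2% and 27.3% of those genes. The median log2 fold change was -0.029 over the 35 members and -0.19 over those 6925 genes. In pooled embryos, fewer cells that express a gene and less of its RNA per cell cannot be told apart. The sign of some changes depended on the scaling. The median over the 5988 genes that had 1 TPM or more in every library differed between the groups by -0.48 (MT-treated minus control, log2 scale). Centring on that median gave 36 higher and 10 lower members (70.4% and 25.4% of the genes tested), and quantile normalization, which forces the same distribution on every library, gave 28 higher and 16 lower (46.4% and 44.4% of the genes tested).

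**Figure D1:**
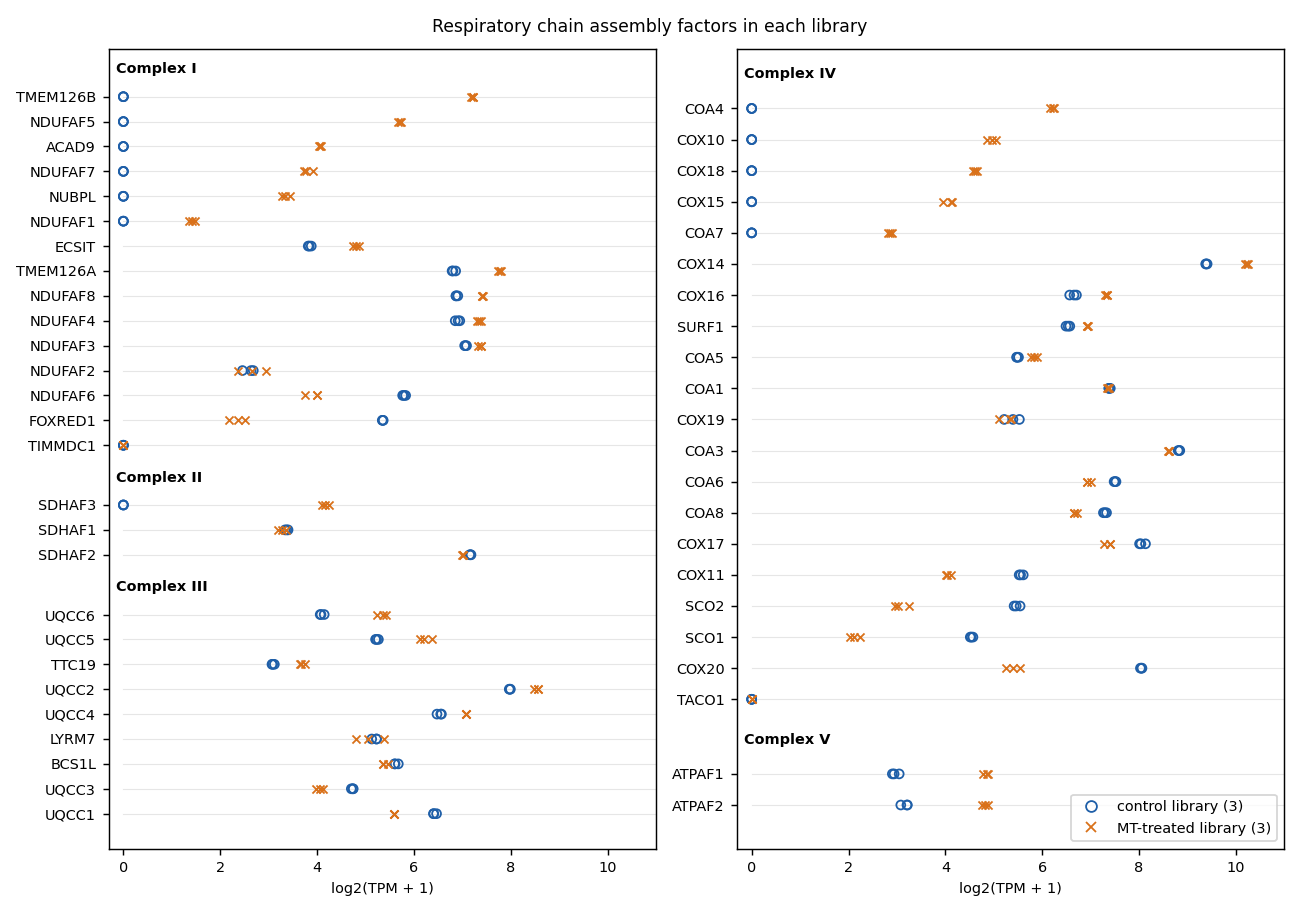
Level of each of the 49 assembly factors in each library, as log2(TPM + 1) on the x axis, grouped by the complex they help to build and ordered by log2 fold change. Open circles are the 3 control libraries and crosses the 3 MT-treated libraries; 12 factors have all control circles at 0, TIMMDC1 and TACO1 are at 0 throughout, and the groups overlap in 4 of the 47 tested factors.

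The replicates of a group lay close together. Members varied between replicates by a median of 2.37% of their mean in control (coefficient of variation, 35 members above 0 there) and 3.86% in MT-treated blastocysts (47 members), compared with 3.69% and 5.28% over all genes tested. The MT-treated and control values did not overlap for 43 of the 47 members, where 96.1% of the genes tested did not overlap, and for 31 of the 35 above 0 in all libraries, where 93.5% did not. An exact permutation test (two-sided) on 3 against 3 libraries reaches no p below 0.1 for any gene, and the calls therefore rest on the spread that limma shares across genes.

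The 12 members listed at 0 in the control libraries spanned levels from 1.67 TPM (NDUFAF1) to 146 TPM (TMEM126B) in MT-treated blastocysts, with a median of 16.4 TPM. A value of 0 does not tell an absent transcript from one that was not captured, aligned or counted, so no fold change is given for these genes. Of all tested genes with an MT-treated mean of 100 TPM or more, 14 of 1249 (1.12%) were at 0 in every control library, and TMEM126B was one of these 14. At 20 to 100 TPM the share was 23.8%, with 4 of 15 members, and at 5 to 20 TPM it was 47.2%, with 6 of 13 members. By complex, 6 of the 12 act on complex I, 1 on complex II and 5 on complex IV. No tested factor of complexes III and V was at 0 in control.

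Complex I, the NADH dehydrogenase, had the most members at 0 in control, with 6 of its 14 tested factors (42.9%) listed only in MT-treated blastocysts. Of all genes tested, 33.8% were at 0 in every control library. Of the 8 factors above 0 in all libraries, 5 were higher, 2 lower and 1 not called, against 40.6% higher and 52.3% lower among all genes of that kind. Over the 14, 11 were higher and 2 lower, beside 61.6% and 34.1% of all genes tested. The 11 include the 6 at 0 in control, in which a difference was built in. Median centring gave 12 higher and 2 lower, beside 70.4% and 25.4% of all genes tested. Quantile normalization gave 10 and 4, beside 46.4% and 44.4%. Its membrane arm is built on a scaffold known as the MCIA complex, formed by NDUFAF1, ACAD9, ECSIT and TMEM126B. TMEM126B (ENSBTAG00000020596), the membrane anchor of the scaffold, had 0 TPM in each control library, against 148, 144 and 147 TPM under MT. ACAD9 (ENSBTAG00000003242), a relative of the acyl-CoA dehydrogenases, had 0 TPM in each control library, against 15.9, 15.5 and 15.8 TPM under MT. NDUFAF1 (ENSBTAG00000010778) had 0 TPM in each control library, against 1.68, 1.57 and 1.77 TPM under MT, just above the level required for testing, and with quantile normalization its direction was reversed. All 3 MT-treated libraries thus held transcripts that were listed in none of the control libraries. ECSIT (ENSBTAG00000015049), the remaining scaffold protein, was present in both groups, with 13.7, 13.1 and 13.3 TPM in control against 25.6, 26.9 and 28.1 TPM under MT. Every MT-treated value lay above every control value, with a log2 fold change of 0.95 (limma, standard error 0.04, adjusted p = 1.02e-06). The 4 scaffold genes together summed to between 13.1 and 13.7 TPM in the control libraries and to between 188 and 193 TPM in the MT-treated libraries. The control sum was that of ECSIT alone, and TMEM126B made up most of the MT-treated sum. Because the scaffold genes other than ECSIT were at 0 in control, a rise of the sum was built in.

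TMEM126A, a neighbour and paralogue of TMEM126B that acts on the ND4 part of the membrane arm, had 115, 111 and 109 TPM in control against 218, 212 and 222 TPM under MT. Its groups did not overlap, and the log2 fold change was 0.95 (standard error 0.03, adjusted p = 1.51e-07 by limma). The neighbouring genes thus both had more than 140 TPM in each MT-treated library, while in control TMEM126A was above 100 TPM and TMEM126B at 0. TIMMDC1, another membrane arm factor, was listed at 0 in all 6 libraries and was not tested.

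The Q module, the part of complex I that reduces ubiquinone, depends on NDUFAF3 to NDUFAF8. NDUFAF5 (ENSBTAG00000004302), which hydroxylates an arginine of the subunit NDUFS7, had 0 TPM in each control library, against 52.0, 51.2 and 50.3 TPM under MT. NDUFAF7 (ENSBTAG00000001113), a methyltransferase, had 0 TPM in each control library, against 12.6, 14.2 and 12.2 TPM under MT. Both enzymes were therefore listed only in MT-treated blastocysts. NDUFS7, the subunit that NDUFAF5 modifies, had 264 ± 4.03 TPM in control and 260 ± 9.28 TPM in MT-treated blastocysts (SD, n = 3 each) and was not called, though it was called higher with median centring (0.46) and quantile normalization (0.14). NDUFAF8, the partner of NDUFAF5, was present in both groups and rose from 117 ± 1.73 to 169.8 ± 0.809 TPM (SD, n = 3 each). NDUFAF3 and NDUFAF4, which bind each other on the Q module, rose from 133 ± 1.81 to 164 ± 3.798 TPM and from 119 ± 3.92 to 162 ± 4.59 TPM (SD, n = 3 each). NDUFAF6 went the other way, with 54.5, 55.8 and 53.4 TPM in control against 12.4, 14.97 and 14.9 TPM under MT. The groups did not overlap, and the log2 fold change was -1.89 (standard error 0.07, adjusted p = 6.22e-07 by limma).

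Among the factors that act at other points of complex I assembly, NUBPL and FOXRED1 moved in opposite directions. NUBPL (ENSBTAG00000044121), which delivers iron-sulfur clusters, had 0 TPM in each control library, against 9.14, 9.89 and 8.68 TPM under MT. FOXRED1 (ENSBTAG00000014122), a flavoprotein of late assembly, had 39.9, 39.7 and 40.2 TPM in control against 4.67, 4.14 and 3.52 TPM under MT. Its MT-treated values all lay below its control values, with a log2 fold change of -3.01 (limma, standard error 0.08, adjusted p = 1.05e-07), the lowest of all 47 tested factors. NDUFAF2, a paralogue of the subunit NDUFA12 that acts late, had 5.42, 5.22 and 4.50 TPM in control against 4.17, 6.73 and 5.34 TPM under MT. The groups overlapped and it was not called (log2 fold change 0.069, 95% confidence interval from -0.31 to 0.45, adjusted p = 0.675 by limma), although it was called higher with median centring (0.55) and lower with quantile normalization (-1.96).

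Complex II, the succinate dehydrogenase, had 3 factors in the table. SDHAF3 (ENSBTAG00000015925), which assists the maturation of the iron-sulfur subunit SDHB, had 0 TPM in each control library, against 16.8, 17.97 and 16.2 TPM under MT. SDHAF1, which also serves SDHB, had 9.11, 9.35 and 9.56 TPM in control against 9.22, 8.20 and 8.70 TPM under MT. The groups overlapped and the difference was not called (log2 fold change -0.092, 95% confidence interval from -0.21 to 0.026, adjusted p = 0.108 by limma). Without MT-treated replicate 1, SDHAF1 was called lower, at -0.13, with quantile normalization also lower, at -2.13, and with median centring higher, at 0.39. SDHB itself dropped to 393 ± 0.855 TPM from 566 ± 7.38 TPM (SD, n = 3 each). Its log2 fold change of -0.52 became -0.045 with median centring and -0.37 with quantile normalization. SDHAF2, which attaches flavin to SDHA, had 144, 143 and 141 TPM in control against 129, 127 and 129 TPM under MT. The groups did not overlap (log2 fold change -0.15, standard error 0.02, adjusted p = 0.000139 by limma), but with median centring SDHAF2 was called higher, at 0.33, and with quantile normalization at 0.12.

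All 9 factors of complex III, the cytochrome bc1 complex, were present in both groups, with 5 higher, 3 lower and 1 not called, beside 40.6% higher and 52.3% lower among all tested genes above 0 in all libraries. Median centring gave 7 higher and 2 lower, beside 70.4% and 25.4% of all genes tested. Quantile normalization gave 4 higher and 3 lower, beside 46.4% and 44.4%. The small proteins UQCC5 and UQCC6 showed the largest rises of this complex. UQCC6 had 15.7, 15.9 and 16.7 TPM in control against 36.8, 41.7 and 39.9 TPM under MT, and UQCC5 had 36.0, 36.5 and 37.5 TPM in control against 82.4, 68.4 and 73.3 TPM under MT. Neither overlapped between groups, and the log2 fold changes were 1.24 (standard error 0.05, adjusted p = 9.07e-07 by limma) for UQCC6 and 1.004 (limma, standard error 0.07, adjusted p = 1.15e-05) for UQCC5. UQCC4 rose from 91.6 ± 3.12 to 134 ± 0.606 TPM (SD, n = 3 each).

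UQCC1, UQCC2 and UQCC3 act early on cytochrome b, the mitochondrially encoded subunit of this complex, and they did not move together. UQCC1 had 87.4, 84.1 and 83.6 TPM in control against 47.3, 47.3 and 46.8 TPM under MT, without overlap (log2 fold change -0.84, standard error 0.02, adjusted p = 1.42e-07 by limma). UQCC3 had 25.7, 25.8 and 25.1 TPM in control against 15.6, 14.7 and 16.4 TPM under MT, also without overlap (log2 fold change -0.68, standard error 0.04, adjusted p = 7.90e-06 by limma). UQCC2, by contrast, was higher in each MT-treated library, rising from 251 ± 1.98 to 371 ± 11.5 TPM (SD, n = 3 each). CYTB, which encodes cytochrome b, fell to 2815 ± 65.1 TPM from 3926 ± 104 TPM (SD, n = 3 each), but was not called with median centring (log2 fold change -0.00052, limma adjusted p = 0.985).

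BCS1L, LYRM7 and TTC19 serve the Rieske iron-sulfur protein UQCRFS1, which BCS1L moves across the inner membrane, LYRM7 holds beforehand and TTC19 clears of cleavage fragments. BCS1L had 47.5, 50.2 and 47.9 TPM in control against 43.0, 40.2 and 40.2 TPM under MT. It was lower without overlap (log2 fold change -0.23, standard error 0.04, adjusted p = 0.00110 by limma), but higher with median centring (0.25) and not called with quantile normalization (0.073). TTC19 had 7.47, 7.68 and 7.39 TPM in control against 12.5, 11.6 and 11.8 TPM under MT, and was higher without overlap, with a log2 fold change of 0.61 (limma, standard error 0.04, adjusted p = 8.58e-06) that became -1.24 with quantile normalization. LYRM7 had 36.5, 34.0 and 36.4 TPM in control against 32.3, 40.5 and 27.1 TPM under MT. Replicate 2 of the MT-treated group lay above all control libraries and the other two below them, and LYRM7 was not called (log2 fold change -0.11, 95% confidence interval from -0.46 to 0.23, adjusted p = 0.461 by limma). Without that replicate it was called lower, at -0.26, and with median centring it was called higher, at 0.37. UQCRFS1 rose from 744 ± 1.46 to 877 ± 7.69 TPM (SD, n = 3 each).

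Complex IV, cytochrome c oxidase, had 19 tested factors, of which 9 were higher, 8 lower and 2 not called, beside 61.6% higher and 34.1% lower among all genes tested. Of the 9, 5 were listed at 0 in control, and among the 14 factors above 0 in all libraries 4 were higher and 8 lower, against 40.6% and 52.3% of all genes of that kind. Over the 19, median centring gave 12 higher and 6 lower, beside 70.4% and 25.4% of all genes tested. Quantile normalization gave 10 higher and 8 lower, beside 46.4% and 44.4%. They are described by the step they serve: the making of heme A, the delivery of copper, and the handling of the subunits COX1 and COX2, which are encoded in the mitochondrial genome and carry these cofactors. COX10 (ENSBTAG00000015294), the heme O synthase, had 0 TPM in each control library, against 30.2, 28.1 and 31.8 TPM under MT. COX15 (ENSBTAG00000045703), which turns heme O into heme A, had 0 TPM in each control library, against 14.6, 16.3 and 16.6 TPM under MT. Both enzymes of the heme A pathway were thus listed only in MT-treated blastocysts.

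**Figure D2:**
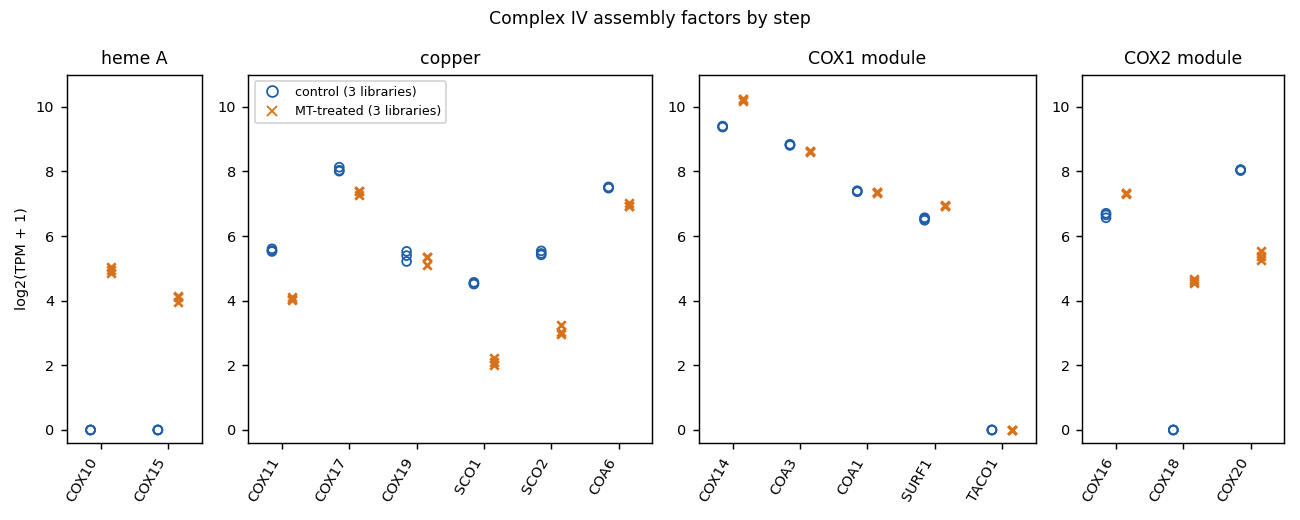
Level of the complex IV assembly factors in each library, as log2(TPM + 1) on the y axis, in panels for heme A synthesis, copper delivery and the handling of COX1 and COX2. Open circles are the 3 control and crosses the 3 MT-treated libraries; COX10, COX15 and COX18 are at 0 in control, and of 6 copper factors 5 lie lower in MT-treated blastocysts while COX19 overlaps.

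Of 6 copper delivery factors, all above 0 in every library, 5 fell and COX19 was not called, and of all tested genes of that kind 52.3% fell. The counts were the same with quantile normalization, whereas median centring left 4 lower, 1 higher (COX19) and 1 not called (COA6). COX17, the chaperone that hands copper to the others, had 262, 279.5 and 257 TPM in control against 154, 169 and 167 TPM under MT. It did not overlap between groups (log2 fold change -0.70, standard error 0.05, adjusted p = 1.18e-05 by limma). SCO1 (ENSBTAG00000021780), which passes copper to COX2, had 22.2, 21.9 and 22.7 TPM in control against 3.07, 3.70 and 3.31 TPM under MT. Its paralogue SCO2 (ENSBTAG00000057697) had 45.6, 41.8 and 43.1 TPM in control against 7.12, 8.51 and 6.76 TPM under MT. All MT-treated values of both paralogues lay far below the control values, with log2 fold changes of -2.42 (limma, standard error 0.06, adjusted p = 5.67e-08) for SCO1 and -2.40 (limma, standard error 0.08, adjusted p = 3.35e-07) for SCO2. COX11, which passes copper to COX1, had 45.9, 45.0 and 47.7 TPM in control against 16.3, 15.2 and 15.5 TPM under MT (log2 fold change -1.50, standard error 0.04, adjusted p = 6.50e-08 by limma). COA6, a further factor of the copper site in COX2, fell to 123 ± 4.55 TPM from 180 ± 2.42 TPM (SD, n = 3 each), and with median centring it was no longer called (log2 fold change -0.072, limma adjusted p = 0.0638). COX19 had 36.1, 45.1 and 41.1 TPM in control against 33.4, 39.5 and 39.8 TPM under MT. Its groups overlapped and it was not called (log2 fold change -0.11, 95% confidence interval from -0.37 to 0.14, adjusted p = 0.315 by limma), while with median centring it was called higher, at 0.36. The 6 genes summed to between 592 and 611 TPM in the control libraries and to between 342 and 356 TPM in the MT-treated libraries.

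Handling of COX2 also involved changes in opposite directions. COX18 (ENSBTAG00000005394), which inserts COX2 into the inner membrane, had 0 TPM in each control library, against 24.3, 23.4 and 22.6 TPM under MT. COX20 (ENSBTAG00000033136), the chaperone that receives newly made COX2, had 259.9, 266 and 263 TPM in control against 45.6, 37.0 and 41.2 TPM under MT. The control values of COX20 lay far above its MT-treated values, with a log2 fold change of -2.65 (limma, standard error 0.07, adjusted p = 1.07e-07). COX16 moved the other way from COX20, with 93.8, 99.8 and 103 TPM in control against 156, 162 and 161 TPM under MT (log2 fold change 0.68, standard error 0.04, adjusted p = 4.72e-06 by limma). COX2 itself was among the most abundant transcripts and rose from 12659 ± 197 to 14908 ± 273 TPM (SD, n = 3 each), but was not called with quantile normalization.

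Early handling of COX1 runs through COX14, COA3 and COA1, which hold newly made COX1 while it is being translated and matured. COX14 had the highest mean level of the 49 members, with 677, 663 and 668 TPM in control against 1167, 1202 and 1221 TPM under MT. It was higher without overlap (log2 fold change 0.84, standard error 0.02, adjusted p = 4.45e-08 by limma). Its partner COA3 had 457, 447 and 454 TPM in control against 388, 393 and 393 TPM under MT, lower without overlap (log2 fold change -0.21, standard error 0.01, adjusted p = 1.02e-05 by limma), but higher with median centring (0.27). COA1, which also takes part in complex I assembly, had 168.5, 165 and 165 TPM in control against 162, 165 and 162 TPM under MT. The groups of COA1 lay side by side without overlapping, and it was not called (log2 fold change -0.029, 95% confidence interval from -0.072 to 0.013, adjusted p = 0.144 by limma), whereas it was called higher with median centring (0.45) and quantile normalization (0.21). SURF1, which acts on the maturation of COX1, rose from 91.5 ± 2.51 to 121 ± 1.34 TPM (SD, n = 3 each). TACO1, the activator of COX1 translation, was listed at 0 in all 6 libraries and was not tested. COX1 rose from 7894 ± 140.0 to 9638 ± 198 TPM (SD, n = 3 each).

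The remaining complex IV factors are small or poorly understood proteins. COA4 (ENSBTAG00000054199) had 0 TPM in each control library, against 74.1, 70.7 and 74.3 TPM under MT, the highest level after TMEM126B among the members at 0 in control. COA7 (ENSBTAG00000062331) had 0 TPM in each control library, against 6.20, 6.46 and 6.04 TPM under MT. COA5 rose from 43.9 ± 0.639 to 55.7 ± 2.15 TPM and COA8 fell to 101 ± 2.85 TPM from 156 ± 3.50 TPM (SD, n = 3 each).

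Both factors of complex V, the ATP synthase, were higher by at least 2-fold, as were 22.2% of all tested genes above 0 in all libraries. ATPAF1 (ENSBTAG00000000094), the chaperone of the beta subunit of the catalytic head, had 6.68, 7.26 and 6.49 TPM in control against 27.9, 26.5 and 28.4 TPM under MT. ATPAF2 (ENSBTAG00000008801), the chaperone of the alpha subunit, had 8.28, 7.45 and 8.23 TPM in control against 26.2, 28.3 and 27.2 TPM under MT. The groups of both genes lay wide apart, with log2 fold changes of 1.87 (limma, standard error 0.05, adjusted p = 8.35e-08) for ATPAF1 and 1.65 (limma, standard error 0.05, adjusted p = 1.87e-07) for ATPAF2, the highest among the 35 members above 0 in all libraries. Their clients differed less. ATP5F1B, the beta subunit, had 1770 ± 15.1 and 1765 ± 20.2 TPM and was not called, though it was called higher with median centring (0.48) and quantile normalization (0.080), and ATP5F1A, the alpha subunit, rose from 816 ± 5.97 to 1124 ± 9.92 TPM (SD, n = 3 each).

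The subunits that these factors assemble were compared as lists. Of 75 tested nuclear subunits, 31 were higher, 33 lower and 11 not called, and by at least 2-fold 1 was higher and 2 were lower. None of the 75 was at 0 in every control library, and 40.6% of all tested genes above 0 in all libraries were higher and 52.3% lower. Of those genes, 22.2% rose and 27.3% fell by 2-fold or more. Among the 75, the largest rise was in ATP5MC2, from 406 ± 3.18 to 1053 ± 39.6 TPM (SD, n = 3 each). The largest fall was in NDUFA8, to 135 ± 2.47 TPM from 369 ± 6.08 TPM (SD, n = 3 each). NDUFC2 rose from 269 ± 5.99 to 482 ± 18.9 TPM and UQCRH fell to 627 ± 4.43 TPM from 1330 ± 17.99 TPM (SD, n = 3 each). Of the 13 mitochondrially encoded subunits, 9 were higher, 3 lower and 1 not called, led by ND5 and ND4 among the rises (log2 fold changes 0.84 and 0.67) and by ATP8 and CYTB among the falls (log2 fold changes -0.60 and -0.48). With median centring 72 of all 88 tested subunits were higher and 10 lower, in place of 40 and 36, beside 70.4% higher and 25.4% lower among all genes tested under that setting. The median size of the log2 fold change in either direction was 0.27 in nuclear subunits and 0.35 in mitochondrially encoded subunits. Subunits and assembly factors differ in level, since 87 of the 88 tested subunits but only 16 of the 47 tested factors had a mean of 100 TPM or more over all libraries. Within that range the median size was 0.29 in subunits, 0.55 in assembly factors and 0.45 in the 1311 genes of that level. The range has no upper limit, and levels still differed within it. In control the subunit COX3 had a mean of 20339 TPM, and COX14, the highest factor, had 669 TPM. The difference between the lists was not tested.

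**Figure D3:**
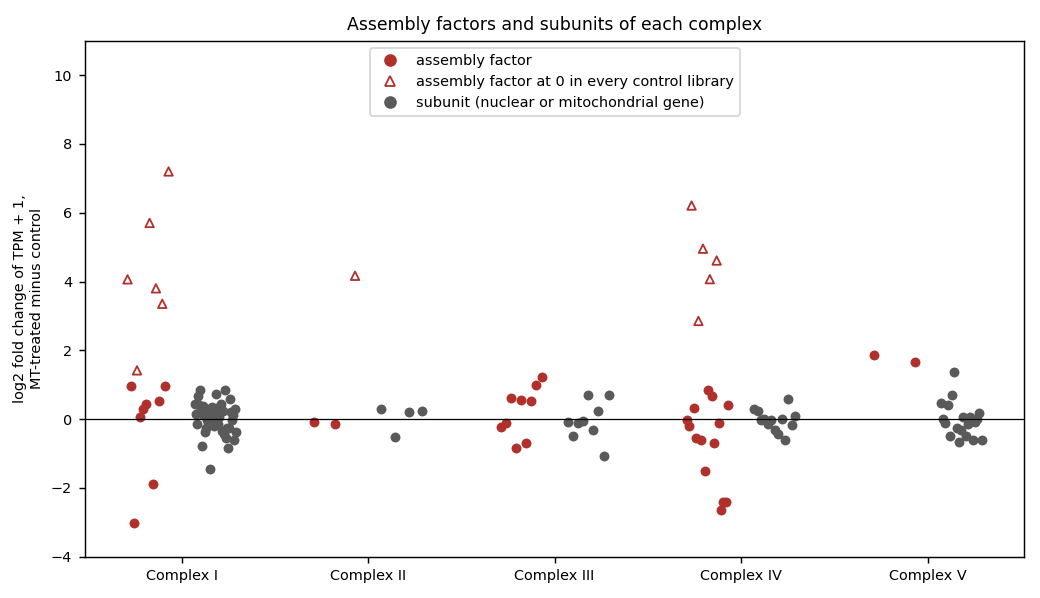
Log2 fold change on the log2(TPM + 1) scale, MT-treated minus control, of tested assembly factors (red, open triangles where every control library is at 0) and of tested subunits (grey) for each complex on the x axis. Subunits lie between -1.45 and 1.37 and assembly factors above 0 in all libraries between -3.01 and 1.87, while the height of the triangles depends on the pseudocount of 1.

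The listed genes summed to between 936783 and 937698 TPM in control and to between 912686 and 913707 TPM in MT-treated libraries. Sums of the subunits and of the assembly factors as a whole are therefore also given as shares of that total. Sums by complex are in TPM only. Nuclear subunits had between 81427 and 82159 TPM (8.69% to 8.76%) in control and between 79700 and 80302 TPM (8.73% to 8.79%) in MT-treated libraries, shares that overlap. Mitochondrially encoded subunits held 7.88% to 8.13% in control and 8.90% to 9.17% in MT-treated libraries. The assembly factors summed to between 3885 and 3909 TPM (0.414% to 0.417%) in control and to between 4682 and 4738 TPM (0.512% to 0.519%) in MT-treated libraries, with COX14 the largest single contributor in both. Taken as a net, the higher sum came from COX14 and from the 12 members at 0 in control. Those 12 held 399 to 405 TPM in MT-treated libraries. The other 36 members held both rises and falls, which partly offset each other. Together these 36 summed to 3229 ± 11.3 TPM in control and 3107 ± 8.89 TPM in MT-treated libraries (SD, n = 3 each). By complex, the sum went from 593 ± 6.84 to 1000.5 ± 7.33 TPM for complex I, from 152 ± 1.11 to 154 ± 1.08 TPM for complex II, from 598 ± 4.27 to 768 ± 12.9 TPM for complex III, from 2541 ± 2.29 to 2729 ± 37.5 TPM for complex IV and from 14.8 ± 0.142 to 54.8 ± 0.741 TPM for complex V (SD, n = 3 each). Without the members at 0 in control, the MT-treated sum of complex I was 764 ± 6.67 TPM, and without these and COX14 the sum of complex IV was 1871 ± 8.91 TPM in control and 1384 ± 12.4 TPM in MT-treated blastocysts (SD, n = 3 each).

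A second list held assembly factors outside the selection, such as the insertase OXA1L and the complex IV factor PET100. The summed level of this list fell, unlike that of the members. It was 2323 to 2346 TPM (0.248% to 0.250%) in control and 2014 to 2040 TPM (0.221% to 0.223%) in MT-treated libraries. Of the 23 tested rows of the list, 13 were higher and 10 lower, beside 61.6% and 34.1% of all genes tested. Among the 13, TMEM186 and TMEM177 were listed at 0 in every control library. OXA1L, which inserts several mitochondrially encoded subunits into the inner membrane, had 0.35, 0.14 and 0.47 TPM in control against 76.6, 76.5 and 74.2 TPM under MT. RTN4IP1, a factor of complex I, had 0.96, 0.95 and 0.48 TPM in control against 34.1, 31.1 and 32.6 TPM under MT. HIGD2A, which acts on complex IV and supercomplexes, went the other way, with 8.99, 11.3 and 13.1 TPM in control and 0 TPM in each MT-treated library. DMAC2, a complex I factor, fell to 40.8 ± 1.16 TPM from 137 ± 1.66 TPM (SD, n = 3 each).

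**Figure D4:**
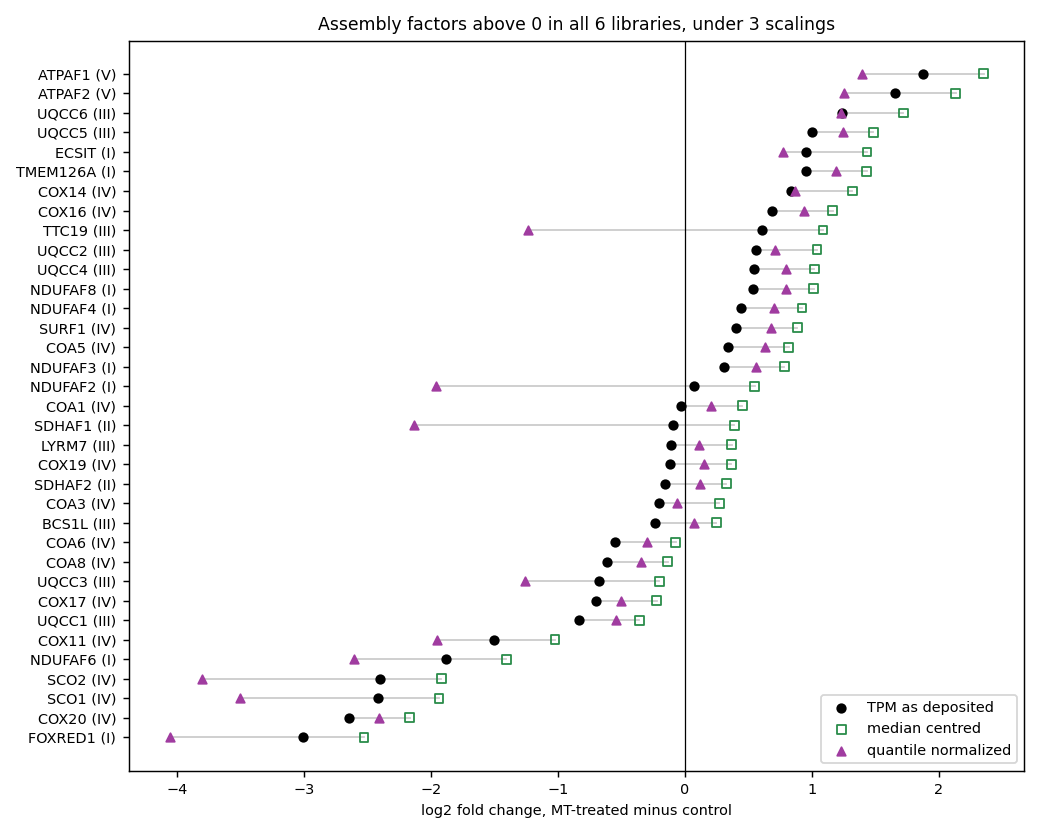
Log2 fold change, MT-treated minus control, on the x axis for the 35 assembly factors above 0 in all 6 libraries, with TPM as deposited (black), after median centring (green squares) and after quantile normalization (purple triangles), and the complex in brackets. The 6 factors that fell by at least 2-fold (FOXRED1, COX20, SCO1, SCO2, NDUFAF6 and COX11) and the 4 that rose by at least 2-fold (ATPAF1, ATPAF2, UQCC6 and UQCC5) keep their side under all 3 scalings. Genes that change sides include several near 0 and TTC19, which goes from 0.61 to -1.24 with quantile normalization, and 2-fold means a log2 fold change of at least 1 in size on log2(TPM + 1), which ECSIT (0.95) just misses.

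The deposited table gives no coordinates, and none are printed here. In RefSeq's table for the assembly ARS-UCD2.0, in which all 49 members were found by symbol, 9 overlapped another protein-coding gene (NDUFAF5, ACAD9, NDUFAF7, NDUFAF1, NDUFAF3, TTC19, BCS1L, COX10 and COX15). This assembly is not the build named for these data, on which gene models may differ. Whether reads were counted by strand, and how reads in stretches shared between genes were assigned, is not given in the sources used here. The values of these 9 genes are therefore less certain. Among them, 6 were at 0 in every control library, as were 12 of the 47 tested members and 33.8% of all genes tested.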

How the data were processed

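RNA from 6 pools of bovine blastocysts was measured, 3 from control and 3 from MT-treated oocytes. Per the methods of the study, the authors filtered reads with fastp and FastQC, aligned them with STAR 2.7.9a and counted them on genes with featureCounts from Subread 1.6.3. The methods name the genome ARS-UCD1.3 and the labels ARS-UCD1.2, and the build behind the table is therefore uncertain. The values deposited by the authors are TPM with 2 decimals for each gene in each library. How these were derived from the counts is not given in the sources used here. The methods name Smart-seq2 chemistry and the labels a TruSeq kit. Since TPM holds no counts, the depth behind a value cannot be read from the table and counting error could not be given.

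Groups came from the sample labels. TPM was transformed to log2(TPM + 1), where 1 is the pseudocount, and genes with 1 TPM or more in 3 or more libraries entered a fit with limma 3.58.1 (lmFit, and eBayes with an intensity trend) under R 4.3.3. The DESeq2 model of the study needs counts and was not used. Benjamini-Hochberg adjustment of the p-values ran over all genes tested, and a gene was called at an adjusted p-value under 0.05. Members were found by gene symbol. The members, the lists of subunits, other assembly factors and markers, and the grouping by assembly step were chosen with earlier results of these data known. Every member was to be accounted for, with values per library for the 3 highest and 3 lowest called members of each complex, members listed at 0 in a group and members not called. The 2 highest and 2 lowest genes of each comparison list were also to be named.

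P-values rest on the spread between the libraries of a group, partly shared across genes by limma. The methods describe these libraries as coming from separate in vitro production runs. For members at 0 in every control library, the control group adds no spread of its own. Replicate numbers are not said to mark shared runs. Samples with the same number did not deviate together across genes (correlations of -0.011, -0.00068 and 0.059), so libraries were treated as unpaired. The fit was repeated with 0.1 as the pseudocount, without the filter, with a 5 TPM minimum, with only genes above 0 in all 6 libraries, with median centring or quantile normalization, without the trend, with a replicate block and without each library in turn. The fit was tested on simulated data. Figures were drawn with Python 3.11.15 and matplotlib 3.10.9.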

Additional observations from a re-analysis of the deposited data

How the results depend on the processing

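No member called higher or lower lost its call or changed direction with another pseudocount, without a filter, with a minimum of 5 TPM (which leaves out NDUFAF1), without the intensity trend or with any library left out. Among genes above 0 in all 6 libraries, 16 members were higher and 4 were higher by at least 2-fold, because the 12 members at 0 in control drop out. With quantile normalization, 10 were lower by at least 2-fold. Shares of all genes past 2-fold are given here for the main fit only, so 2-fold counts under other settings have no such share beside them. Median centring gave 72 higher and 10 lower subunits in place of 40 and 36, beside 70.4% and 25.4% of all genes tested. Directions of members called in at least 1 of the fits compared were reversed by median centring for SDHAF1 (0.39), SDHAF2 (0.33), LYRM7 (0.37), BCS1L (0.25), COA1 (0.45), COX19 (0.36) and COA3 (0.27), and by quantile normalization for NDUFAF1 (-0.40), NDUFAF2 (-1.96), SDHAF2 (0.12), TTC19 (-1.24), BCS1L (0.073) and COA1 (0.21) (all log2 fold changes). LYRM7 (0.11) and COX19 (0.15) also changed sign under quantile normalization without being called in either fit. With a pseudocount of 0.1, ECSIT reached 2-fold and 17 members were higher by at least 2-fold. Centring adds the same amount to every member, and the cause of the reversals under quantile normalization was not tested. COA6 lost its call under centring (-0.072). Leaving out each library in turn gave 28 higher and 14 to 15 lower members, with 15 to 16 higher and 6 lower by at least 2-fold, and 38 to 41 higher and 34 to 37 lower subunits. With the replicate number as a block, 28 members were higher and 15 lower, COX19 being called lower (-0.11, adjusted p = 0.0426 by limma), and not every sample correlated best with its own number. TPM without counts sets no limit from depth for genes listed at 0.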
